A study of Mus musculus with 24 samples.

Results

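Sterol synthesis and its control by SREBP2 were followed through 27 genes in mouse alveolar epithelial cells. They were taken by symbol from the table of reads counted per gene, and they make up 27 of 55421 mouse gene identifiers. The rule used gene symbols alone, but the list was chosen with earlier results of these data known. Of the 27 genes, 8 encode enzymes of the mevalonate arm (Acat2, Hmgcs1, Mvk, Pmvk, Mvd, Idi1, Fdps, and Ggps1), 12 encode enzymes from squalene to cholesterol (Fdft1, Sqle, Lss, Cyp51, Tm7sf2, Lbr, Msmo1, Nsdhl, Hsd17b7, Ebp, Sc5d, and Dhcr7), 6 encode SREBP2 and the proteins that hold, escort, or cleave it (Srebf2, Scap, Insig1, Insig2, Mbtps1, and Mbtps2), and 1, Stard4, encodes a cytosolic sterol carrier. All 27 passed the filter on low counts, and the fewest reads on any of them in a library were 47.

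The cells were type 2 alveolar epithelial cells (AEC2s), the surfactant-producing progenitors of the alveolus, from wild-type mice (Krt8+/+) and from mice that lack keratin 8 in all tissues (Krt8-/-). Their RNA was read before culture (day 0) and after 1, 3, and 7 days in 2D culture, on a stiff surface coated with laminin. In the paper's account, AEC2s in this culture enter an intermediate, transitional state at day 1. Some go on to resemble type 1 alveolar cells, and many are still transitional on day 7. Each of the 8 groups of genotype and day held 3 libraries, 1 for each of 3 dates in the sample titles that both genotypes share. These were read as isolation dates, which the titles do not state. Strain, age, and any pooling of mice were not stated in the sources used here, so p values measure the spread between isolations. Total counts ranged from 10184439 to 19483386 per library. Krt8 was counted at 485 to 5090 CPM (read counts scaled to a common library size with TMM factors) in the 12 Krt8+/+ libraries and at 21.2 to 47.4 CPM in the 12 Krt8-/- libraries, so every library matched the genotype in its label. All 7 AEC2 markers examined were counted in every group, and their summed level ranged from 204000 to 290000 CPM on day 0 and from 209 to 3200 CPM on day 7.

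Cells make cholesterol from acetyl-CoA. The mevalonate arm builds activated isoprene units and joins them to farnesyl diphosphate, from which squalene synthase commits carbon to sterols, while another branch makes the geranylgeranyl groups that anchor small GTPases to membranes. SREBP2 is the transcription factor that raises the genes of this pathway. It is made as a membrane protein of the endoplasmic reticulum, where SCAP binds it and INSIG proteins retain the complex when sterols are plentiful. When sterols fall, SCAP carries SREBP2 to the Golgi and a pair of proteases releases its active domain, which binds sterol regulatory elements beside NF-Y and Sp1 sites. Cholesterol is also a component of surfactant, the lipid and protein film that AEC2s secrete.

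The sequence before the start of 4 members is shown because the report turns on their levels, Hmgcs1, Idi1, and Insig1 among those that fell and Ggps1 as a member that rose. Each run gives the 250 bases before the start, 5′ to 3′ on the strand of the gene, from RefSeq on GRCm38.p6, and capitals mark matches on either strand to the letters TCACNCCAC, a form of the sterol regulatory element, or to CCAAT, the box that NF-Y binds.
Hmgcs1, chr13:119690101-119690350, plus strand: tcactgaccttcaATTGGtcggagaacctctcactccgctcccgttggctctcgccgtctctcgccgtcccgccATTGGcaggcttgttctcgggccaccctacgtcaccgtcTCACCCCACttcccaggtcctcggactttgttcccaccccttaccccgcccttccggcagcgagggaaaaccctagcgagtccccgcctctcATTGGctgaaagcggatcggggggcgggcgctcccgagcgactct
Idi1, chr13:8885356-8885605, plus strand: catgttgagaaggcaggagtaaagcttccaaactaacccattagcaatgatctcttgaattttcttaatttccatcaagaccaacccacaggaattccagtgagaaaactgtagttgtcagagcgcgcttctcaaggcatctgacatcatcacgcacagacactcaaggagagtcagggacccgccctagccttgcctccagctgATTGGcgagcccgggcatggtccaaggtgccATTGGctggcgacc
Insig1, chr5:28071162-28071411, plus strand: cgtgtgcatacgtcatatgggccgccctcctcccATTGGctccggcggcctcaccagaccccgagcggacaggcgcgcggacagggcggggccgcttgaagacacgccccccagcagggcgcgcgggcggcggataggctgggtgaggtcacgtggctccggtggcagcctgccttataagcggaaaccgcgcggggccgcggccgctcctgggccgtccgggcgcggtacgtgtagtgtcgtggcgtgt
Ggps1, chr13:14063489-14063738, minus strand: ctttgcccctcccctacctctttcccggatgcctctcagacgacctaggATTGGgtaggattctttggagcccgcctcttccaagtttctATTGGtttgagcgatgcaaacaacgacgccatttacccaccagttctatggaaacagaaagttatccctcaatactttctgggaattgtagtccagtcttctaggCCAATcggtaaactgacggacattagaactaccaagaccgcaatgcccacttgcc
In windows from 250 bases before to 50 bases after the start, CCAAT was found on either strand for 19 of the 23 members with a RefSeq entry (82.6%) and for 41.1% of 27025 genes. The 4 members without it were Acat2, Scap, Mbtps1, and Mbtps2. TCACNCCAC was found for 1 member, Hmgcs1, with its first base 137 bases before the start, and for 1.44% of all genes. A match is a description of letters, not a bound site, and Ggps1, which rose, held 3 CCAAT boxes in the bases shown.

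In Krt8+/+ cells, most of the pathway fell when AEC2s were placed in culture and stayed low. The summed level of the 27 genes was 5300, 4780, and 5000 CPM in isolations 1 to 3 on day 0, 3000, 1610, and 3130 CPM on day 1, 1350, 1480, and 1290 CPM on day 3, and 1310, 1380, and 1290 CPM on day 7. Every isolation was lower on day 1 than on day 0 and lower again on day 3, and the ranges of days 3 and 7 overlapped. The means were 51.4%, 27.3%, and 26.4% of day 0.

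Day 7 against day 0 was tested gene by gene in edgeR (quasi-likelihood F test), and p values were adjusted by Benjamini-Hochberg over 18046 genes, with a threshold of 0.05. These adjusted p values are given throughout. In Krt8+/+ cells, 23 of the 27 members fell, beside 30.2% of all genes tested, and 2 rose, beside 28.6%. The median log2 change was -1.99 over the members and 0.00 over all genes. The members that did not fall were Ggps1 and Mbtps2, which rose, and Hsd17b7 and Sc5d, which passed the threshold in neither direction. The highest mean was on day 0 for 22 of the 27 genes, in each genotype, a count given without the share over all genes.

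The fall came mainly in the first 3 days. From day 0 to day 1, 19 members fell (28.5% of all genes fell) and 2 rose (26.2% rose). From day 1 to day 3, 11 fell (11.9%) and 1 rose (14.4%), and from day 3 to day 7, 1 fell (3.47%) and 1 rose (3.11%). The median log2 change of the members was -1.04, -0.28, and 0.01 over these steps, and that of all genes was 0.00, -0.05, and -0.01. Leaving out isolation 1 took the count of members that fell from day 1 to day 3 to 7. AEC2 markers fell over the same days, and their part in the fall of the sterol genes was not tested. In bulk RNA, fewer cells of a type and less RNA per cell cannot be told apart.

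**Figure D1:**
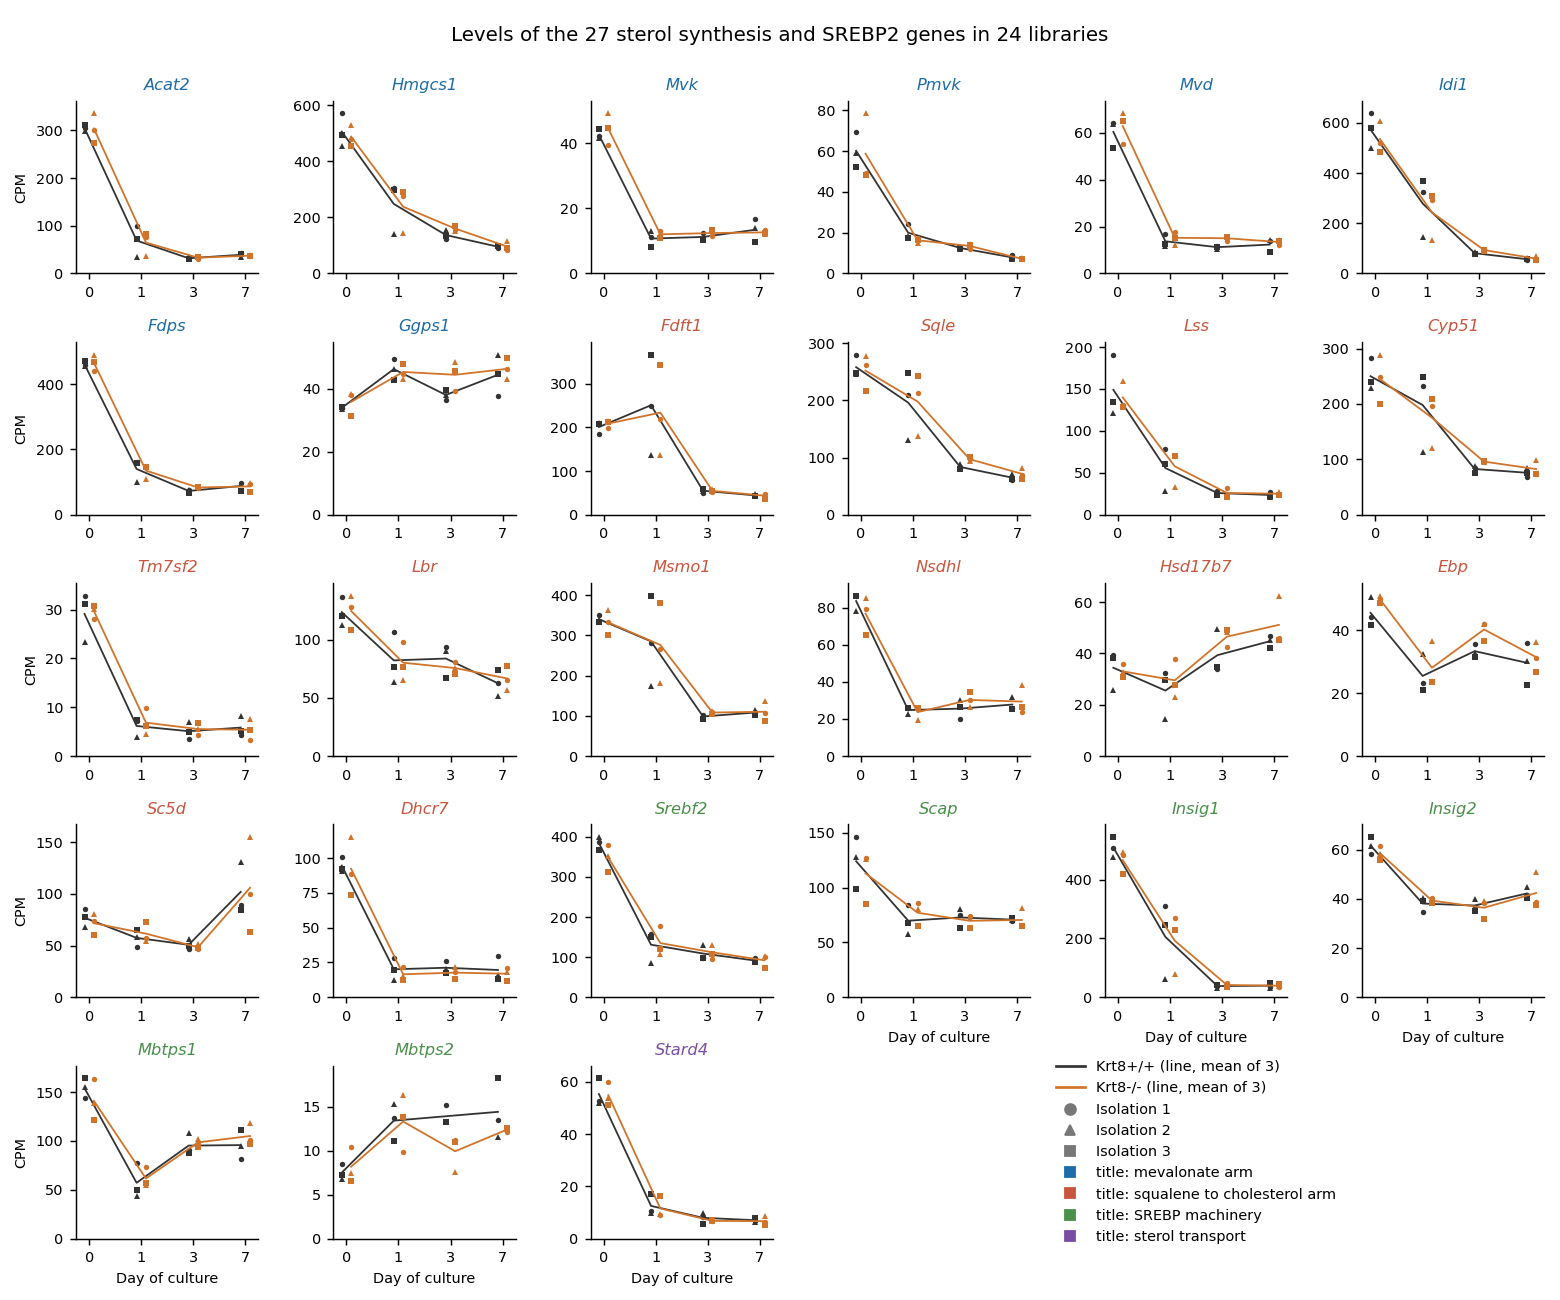
Level of each of the 27 genes in CPM on days 0, 1, 3, and 7, shown at equal spacing, in 3 isolations of Krt8+/+ and 3 of Krt8-/- cells. Points are libraries and lines join group means. Most panels fall from day 0, whereas Ggps1 and Mbtps2 rise, and Fdft1 is low from day 3 on, with means of 201 CPM on day 0 and 251 CPM on day 1 in Krt8+/+ cells.

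Levels of different genes were compared per kilobase of exon. On day 0 in Krt8+/+ cells, the highest were Insig1 at 165 ± 10.7 CPM per kb (SD, n = 3) and Idi1 at 164 ± 19.6, which did not differ beyond their spread. Acat2 (120 ± 2.91), Hmgcs1 (110 ± 13.0), and Fdps (109 ± 1.65) followed and did not differ beyond the spread of Hmgcs1, and the lowest was Mbtps2 at 0.741 ± 0.0847. The order was compressed by day 7. Fdps (20.9 ± 3.28), Sc5d (20.9 ± 5.24), and Hmgcs1 (20.8 ± 1.04) then stood highest and overlapped, and Insig1 had come down to 12.7 ± 2.71 CPM per kb, beside 12.2 ± 0.636 for its paralog Insig2, which had stood at 17.8 ± 0.968 on day 0.

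The mevalonate arm fell furthest among the 3 larger groups of members. Its summed level in Krt8+/+ cells was 2180, 1910, and 2040 CPM on day 0, 992, 509, and 979 CPM on day 1, 385, 419, and 381 CPM on day 3, and 361, 374, and 337 CPM on day 7. These sums were 40.5%, 19.3%, and 17.5% of day 0 on the 3 culture days, with no overlap between day 0, day 1, and day 3. Of its 8 genes, 7 fell (30.2% of all genes) and Ggps1 rose (28.6%) by day 7. The fall was already called for all 7 on day 1.

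Acat2, the cytosolic thiolase that joins acetyl-CoA units, was counted at 306, 298, and 312 CPM on day 0, 100, 33.9, and 73.3 on day 1, 34.6, 31.8, and 29.4 on day 3, and 42.3, 35.3, and 40.0 on day 7. Day 0 stood above every culture library, and isolation 2 on day 1 lay within the range of day 3. The log2 change was -2.14 (SE 0.28, adjusted p = 2.42e-06) from day 0 to day 1 and -1.12 (SE 0.27, adjusted p = 0.00515) from day 1 to day 3. The second call was lost without isolation 1 (adjusted p = 0.129) and without isolation 3 (adjusted p = 0.112).

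Hmgcs1 encodes HMG-CoA synthase, which makes the substrate of the rate-limiting reductase. It was counted at 571, 453, and 495 CPM on day 0, 303, 141, and 299 on day 1, 122, 156, and 133 on day 3, and 89.8, 98.1, and 98.2 on day 7. All day 7 libraries were lower than all others, and days 1 and 3 overlapped through isolation 2. By day 7 its log2 change was -2.41 (SE 0.25, adjusted p = 8.83e-08), lower in 3 of 3 isolations. The step from day 1 to day 3 (log2 -0.86, adjusted p = 0.0128) lost its call without isolation 1 (adjusted p = 0.221) or isolation 3 (adjusted p = 0.208).

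The kinases and the decarboxylase that turn mevalonate into isopentenyl diphosphate fell at once. Mvk stood at 42.5 ± 1.46 CPM before culture and 10.7 ± 2.51 after 1 day (SD, n = 3), and Mvd at 60.3 ± 5.84 and 13.7 ± 2.83 CPM. No later step of either passed the threshold. Pmvk, in contrast, was counted at 69.4, 59.1, and 52.1 CPM on day 0, 24.2, 18.5, and 17.3 on day 1, 12.7, 12, and 12.7 on day 3, and 8.85, 7.22, and 7.56 on day 7. Its ranges on the 4 days did not overlap, and it was the 1 member that fell in the last step in both genotypes (log2 -0.66, adjusted p = 0.0293 in Krt8+/+ and log2 -0.91, adjusted p = 0.00214 in Krt8-/- cells). In Krt8+/+ cells, leaving out any single isolation lost that call, with adjusted p = 0.109, 0.155, and 0.217 without isolations 1, 2, and 3, and in Krt8-/- cells it was lost without isolation 3 (adjusted p = 0.0676).

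Idi1, the isomerase that interconverts the isoprene units, was counted at 638, 501, and 581 CPM on day 0, 326, 144, and 367 on day 1, 79.6, 83.6, and 79.4 on day 3, and 54.1, 60.5, and 56.1 on day 7. The ranges of all 4 days were separate, and the day 7 mean was 9.93% of day 0. Its log2 change by day 7 was -3.33 (SE 0.29, adjusted p = 7.52e-09), the largest fall of the arm. Fdps, the synthase of farnesyl diphosphate, was counted at 457, 456, and 469 CPM on day 0, 160, 101, and 159 on day 1, 76.1, 76.9, and 65.5 on day 3, and 98, 93.6, and 72.2 on day 7. Its log2 change by day 7 was -2.39 (SE 0.18, adjusted p = 6.85e-10).

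Ggps1, which makes geranylgeranyl diphosphate for protein prenylation rather than for sterols, went the other way. It was counted at 33.8, 33.6, and 34.3 CPM on day 0, 49.4, 46.1, and 42.9 on day 1, 36.3, 38.1, and 39.6 on day 3, and 37.8, 50.8, and 44.5 on day 7. Every culture library stood above every day 0 library. The log2 change was 0.44 (SE 0.12, adjusted p = 0.00455) on day 1 and 0.39 (SE 0.12, adjusted p = 0.00995) on day 7. The first call was lost without isolation 1 (adjusted p = 0.062), and the second without isolation 2 (adjusted p = 0.0891) or isolation 3 (adjusted p = 0.0628). An exon of Arid4b on the opposite strand shares 257 bases with Ggps1, and Arid4b went from 131 ± 12.4 to 40.5 ± 3.15 CPM (SD, n = 3).

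The enzymes from squalene to cholesterol also fell, some in the first step and others in the second. Their summed level in Krt8+/+ cells was 1810, 1590, and 1650 CPM on day 0, 1320, 792, and 1570 on day 1, 609, 643, and 562 on day 3, and 604, 654, and 569 on day 7. On day 1 the sum was 72.8% of day 0, on day 3 it was 35.9%, and on day 7 it was 36.1%. Of the 12 genes, 6 fell by day 1 (28.5% of all genes) and 10 by day 7 (30.2%), and none rose in either comparison (26.2% and 28.6%). The median log2 change of the 12 was -0.51 in the first step and -0.23 in the second, beside -1.65 and -0.77 for the mevalonate arm. No test compared the groups of members.

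Fdft1, squalene synthase and the first step committed to sterols, was counted at 185, 210, and 209 CPM on day 0, 249, 137, and 367 on day 1, 50.9, 54.8, and 59.4 on day 3, and 44.1, 47.1, and 42.0 on day 7. On day 1, isolations 1 and 3 stood above all day 0 libraries and isolation 2 below them, and no library of day 3 or 7 reached the lowest of day 1. The log2 change was 0.32 (SE 0.26, adjusted p = 0.317) from day 0 to day 1 and -2.19 (SE 0.28, adjusted p = 1.18e-05) from day 1 to day 3. Without isolation 2, the rise of the first step passed the threshold in Krt8+/+ cells. Ctsb, the gene of the lysosomal protease cathepsin B, overlaps 18.3% of the exonic bases of Fdft1 on the opposite strand. It stood at 787 ± 80.2, 683 ± 214, 670 ± 206, and 841 ± 132 CPM (SD, n = 3) on the 4 days.

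Msmo1, a sterol methyl oxidase, was counted at 350, 337, and 332 CPM on day 0, 281, 175, and 398 on day 1, 103, 99.2, and 92.5 on day 3, and 109, 115, and 101 on day 7. Day 1 spanned the day 0 range, and days 3 and 7 lay below it. The log2 change was -0.25 (SE 0.24, adjusted p = 0.378) in the first step and -1.54 (SE 0.24, adjusted p = 0.000112) in the second. Sqle, the squalene epoxidase and a rate-limiting step of the sterol branch, was counted at 280, 246, and 247 CPM on day 0, 210, 131, and 247 on day 1, 82.9, 88.3, and 79.4 on day 3, and 60, 71.7, and 62.7 on day 7. Its log2 change was -0.40 (SE 0.19, adjusted p = 0.0912) and then -1.23 (SE 0.20, adjusted p = 0.000138). Cyp51, the lanosterol demethylase, had the same order of calls, with log2 changes of -0.34 (adjusted p = 0.224) and -1.26 (adjusted p = 0.000526). These 4 genes were the members called in the second step and not in the first, in both genotypes, with all isolations. The share of all genes with this order of calls is not given here. Without isolation 3, Sqle was also called lower in the first step in both genotypes, and Msmo1 in Krt8-/- cells. The second call was lost in Krt8-/- cells for Sqle without isolation 1 (adjusted p = 0.0563) and for Cyp51 without isolation 1 (adjusted p = 0.155) or isolation 3 (adjusted p = 0.152), whereas in Krt8+/+ cells all 4 genes passed in the second step whichever isolation was left out.

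Dhcr7, the reductase that makes cholesterol from its immediate precursor, fell in the first step. It was counted at 101, 90.6, and 92.1 CPM on day 0 and at 28.2, 12.5, and 19.6 on day 1, with means of 21.2 ± 4.48 and 19.6 ± 8.87 CPM (SD, n = 3) on days 3 and 7. The groups of days 0 and 1 were far apart, with a log2 change of -2.23 (SE 0.32, adjusted p = 8.33e-06). Nsdhl, which removes a carboxyl group from sterol intermediates, went from 83.7 ± 4.67 to 24.8 ± 2.03 CPM by day 1. Lss, the cyclase that closes the sterol rings, went from 149 ± 37.1 to 55.7 ± 25.5 CPM by day 1 and to 25.9 ± 2.58 by day 3.

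Tm7sf2 and Lbr encode sterol ring reductases with the same activity, and Lbr also tethers chromatin to the inner nuclear membrane. Tm7sf2, the least counted member of the arm, was at 32.8, 23.4, and 31.2 CPM on day 0 and at 7.12, 3.93, and 7.40 CPM on day 1, which was 21.1% of day 0 (log2 -2.24, SE 0.35, adjusted p = 2.12e-05). Lbr was at 137, 113, and 121 CPM on day 0 and at 107, 63.9, and 76.7 CPM on day 1, which was 66.6% of day 0 (log2 -0.59, SE 0.19, adjusted p = 0.0137). Neither pair of days overlapped. The call of Lbr was lost without isolation 2 (adjusted p = 0.124) or isolation 3 (adjusted p = 0.0813). Ebp, the isomerase that moves a ring double bond, was at 45.6 ± 4.62, 25.5 ± 6.06, 33.4 ± 2.05, and 29.7 ± 6.70 CPM (SD, n = 3) on the 4 days, and its log2 change by day 7 was -0.62 (SE 0.19, adjusted p = 0.0089), lost without isolation 2 (adjusted p = 0.0698) or isolation 3 (adjusted p = 0.063).

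Sc5d and Hsd17b7 were the 2 genes of this arm that were not lower on day 7. Sc5d, a sterol desaturase, was counted at 85.9, 67.8, and 77.4 CPM on day 0, 49.1, 58.3, and 65.1 on day 1, 46.6, 56.3, and 49.4 on day 3, and 89.8, 131, and 84.5 on day 7. The day 7 libraries stood above those of days 1 and 3 and overlapped day 0. From day 3 to day 7 the log2 change was 1.00 (SE 0.23, adjusted p = 0.0103) in Krt8+/+ cells and 1.13 (SE 0.23, adjusted p = 0.00277) in Krt8-/- cells. Without isolation 1 or 2 the first did not pass (adjusted p = 0.157 and 0.0951), nor did the second (0.0813 and 0.0674). Hsd17b7, a sterol ketone reductase, was counted at 39.5, 25.8, and 38.1 CPM on day 0 and at 46.8, 45.4, and 41.9 CPM on day 7. These ranges did not overlap, and the log2 difference of 0.37 (SE 0.24, adjusted p = 0.191) did not pass the threshold.

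**Figure D2:**
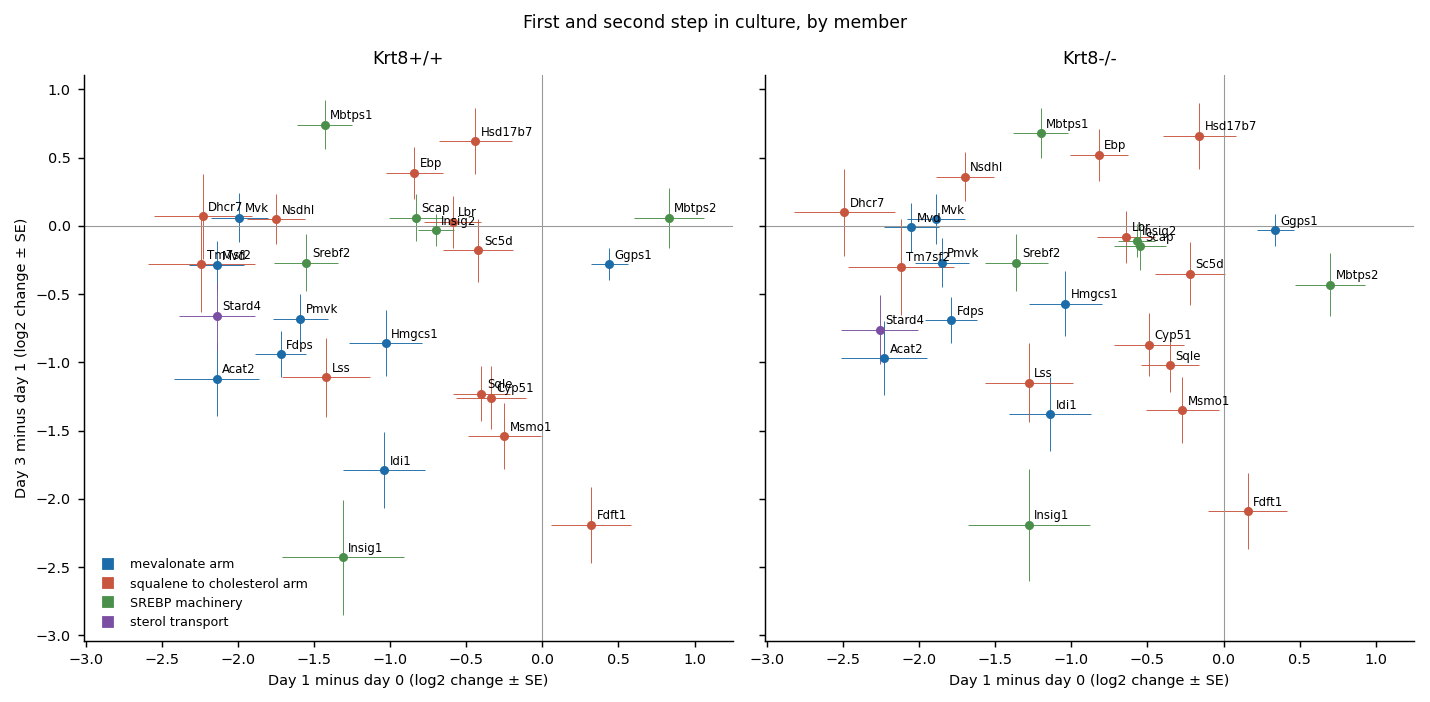
Log2 change of each of the 27 genes from day 0 to 1 and from day 1 to 3, with standard errors from edgeR, in Krt8+/+ and Krt8-/- cells. At an adjusted p under 0.05, the first step holds 19 members that fell in each genotype, and Fdft1, Sqle, Cyp51, and Msmo1 fall in the second step.

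Whether the first or the second step held the larger fall was tested by subtracting the log2 change from day 1 to day 3 from that from day 0 to day 1, a contrast chosen after the data were seen. In Krt8+/+ cells the fall was larger in the first step for 13 members (19.8% of all genes were lower by this contrast), among them Mvk (log2 difference -2.05, adjusted p = 7.26e-05), Mvd (-1.84, adjusted p = 0.000145), Nsdhl (-1.80, adjusted p = 0.000262), and Dhcr7 (-2.31, adjusted p = 0.00312). The contrast was higher for 3 members (19.6% of all genes), Fdft1 (2.51, adjusted p = 0.000175), Msmo1 (1.28, adjusted p = 0.0152), and Ggps1, which rose and then did not pass. Sqle (0.83, adjusted p = 0.0515) and Cyp51 (0.92, adjusted p = 0.0666) did not pass. In Krt8-/- cells 12 members were lower (17.8%) and 3 higher (16.8%), the latter Fdft1, Msmo1, and Mbtps2. With isolation as a block, Msmo1 in Krt8-/- cells had an adjusted p of 0.0525. Leaving out isolation 2 changed these counts most, to 5 lower and 7 higher in Krt8+/+ and 6 lower and 6 higher in Krt8-/- cells, and the higher ones then included Cyp51, Sqle, Idi1, and Insig1 in both genotypes.

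Of the 6 genes that control the pathway, 5 fell and Mbtps2 rose, on day 1 (28.5% of all genes fell and 26.2% rose) and on day 7 (30.2% and 28.6%). Their summed level in Krt8+/+ cells was 1250, 1230, and 1250 CPM on day 0, 678, 303, and 563 on day 1, 352, 404, and 341 on day 3, and 341, 343, and 378 on day 7. The means of the culture days were 41.5%, 29.5%, and 28.5% of day 0. Insig1 and Srebf2 made up most of the sum on day 0.

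Srebf2, which encodes SREBP2 itself, was counted at 386, 399, and 367 CPM on day 0, 158, 85.1, and 150 on day 1, 97.1, 130, and 98.8 on day 3, and 98.9, 88.5, and 87.2 on day 7. All culture libraries lay far below day 0, and the 3 culture days overlapped. The log2 change was -1.55 (SE 0.21, adjusted p = 4.48e-06) on day 1 and -2.07 (SE 0.22, adjusted p = 7.81e-08) on day 7, with no call in the later steps. Scap, the escort protein that senses sterols, went from 124 ± 23.8 to 69.8 ± 13.5 CPM (SD, n = 3) on day 1 and stood at 70.8 ± 1.18 on day 7.

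Insig1, which retains SCAP and is itself a target of SREBP2, had the largest fall by day 7, within the error of that of Idi1. It was counted at 507, 477, and 544 CPM on day 0, 309, 61.2, and 245 on day 1, 38.4, 32.6, and 43.0 on day 3, and 36.3, 32.9, and 48.8 on day 7. Days 0, 1, and 3 did not overlap, although isolation 2 was far below the others on day 1, and day 7 was at 7.73% of day 0. The log2 change was -1.31 (SE 0.40, adjusted p = 0.00898) in the first step, -2.43 (SE 0.42, adjusted p = 0.000265) in the second, and -3.69 (SE 0.44, adjusted p = 4.53e-07) by day 7. The first call was lost without isolation 3 (log2 -1.41, adjusted p = 0.0692). Insig2, its paralog, stood at 61.7 ± 3.36, 38.1 ± 3.10, and 42.2 ± 2.21 CPM on days 0, 1, and 7 (SD, n = 3), with a log2 change of -0.55 (SE 0.12, adjusted p = 0.000676) by day 7.

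The proteases that cleave SREBP2 in turn followed different courses. Mbtps1, site-1 protease, was counted at 144, 155, and 164 CPM on day 0, 77.7, 43.5, and 50 on day 1, 90.2, 108, and 87.9 on day 3, and 81.3, 94.4, and 111 on day 7. It was the member that fell (log2 -1.43, SE 0.18, adjusted p = 1.77e-06) and then rose (log2 0.74, SE 0.18, adjusted p = 0.00488), and days 3 and 7 lay between days 1 and 0. The rise was lost without isolation 2 (adjusted p = 0.164) or isolation 3 (adjusted p = 0.0708). Mbtps2, site-2 protease, was counted at 8.46, 6.82, and 7.20 CPM on day 0, 13.7, 15.3, and 11.1 on day 1, 15.2, 13.3, and 13.2 on day 3, and 13.5, 11.5, and 18.2 on day 7. Every culture library exceeded day 0, with a log2 change of 0.94 (SE 0.23, adjusted p = 0.00149) by day 7, lost without isolation 3 (adjusted p = 0.0594).

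Stard4, the carrier that moves sterols between membranes and a target of SREBP2, was counted at 52.7, 52.0, and 61.3 CPM on day 0, 10.6, 9.70, and 17.1 on day 1, 8.26, 9.79, and 5.73 on day 3, and 6.87, 6.22, and 7.95 on day 7. It fell at once and stayed low, with 22.6% of day 0 on day 1 and 12.7% on day 7. The log2 change by day 7 was -2.98 (SE 0.26, adjusted p = 7.58e-09).

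In Krt8-/- cells, too, most of the pathway fell in the first 3 days. The summed level of the 27 genes was 51.3%, 30.5%, and 28.3% of day 0 on days 1, 3, and 7. From day 0 to day 1, 19 members fell (26.9% of all genes) and 2 rose (23.7%), and the call of every member was the one made in Krt8+/+ cells. The share of all genes with the same call in both genotypes is not given here, so this agreement is no result about the members. From day 1 to day 3, 10 fell (10.2%) and 1 rose (13.4%). The calls of that step differed between genotypes for 3 members, Hmgcs1 and Pmvk, called in Krt8+/+ cells alone, and Stard4, called in Krt8-/- cells alone, which is not a test of a difference between genotypes. From day 3 to day 7, 1 fell (6.15%) and 1 rose (4.4%).

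By day 7, 23 members were lower than on day 0 in Krt8-/- cells (29.9% of all genes) and 4 were higher (28.6%). The 4 higher ones were Ggps1 (log2 0.37, adjusted p = 0.013), Mbtps2 (0.60, adjusted p = 0.0284), Hsd17b7 (0.63, adjusted p = 0.0306), and Sc5d (0.57, adjusted p = 0.041). Mbtps1 was the weakest of the lower ones (log2 -0.42, adjusted p = 0.0488), and with isolation as a block it did not pass (adjusted p = 0.0527). Leaving out isolation 1, 2, or 3 left 2, 2, or 1 of the members higher, and leaving out isolation 1 or 3 took the count that fell from day 1 to day 3 to 3. In that step the block raised the members that rose to 2 in Krt8+/+ (Ebp and Mbtps1) and to 3 in Krt8-/- cells (Ebp, Hsd17b7, and Mbtps1).

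Between genotypes, no member passed the threshold on any day. Krt8-/- against Krt8+/+ cells gave 0 of 27 members on day 0 (0.0277% of all genes differed), day 1 (0.0166%), day 3 (0.0166%), and day 7 (0.0166%), 0 over days 1, 3, and 7 averaged (0.0443%), and 0 in the test of genotype by day (0.00554%). DESeq2 gave 0 in each as well. At an unadjusted p under 0.05 there were 0, 0, 2, and 0 members on the 4 days, 1 over the culture days, and 0 by genotype and day. The 95% interval of a member's log2 difference on 1 day reached a median of 0.48 to 0.49 to either side, and at most 0.85.

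On day 0 the log2 differences ran from -0.14 to 0.13, with the smallest unadjusted p for Scap (-0.14, 95% interval -0.51 to 0.23), Mbtps1 (-0.13, -0.51 to 0.25), and Srebf2 (-0.14, -0.58 to 0.30). On day 1 they ran from -0.30 to 0.21, with Pmvk (-0.30, -0.67 to 0.08), Dhcr7 (-0.29, -0.96 to 0.38), and Hsd17b7 (0.21, -0.31 to 0.73) first by p. On day 7 they ran from -0.22 to 0.19, with Mbtps2 (-0.21, -0.69 to 0.26), Hsd17b7 (0.19, -0.32 to 0.70), and Mbtps1 (0.14, -0.24 to 0.52) first. Intervals that include 0 do not show that the genotypes were alike, and the lowest bound on these 3 days was -0.96 and the highest 0.87.

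Day 3 was the day with the widest differences, from -0.49 to 0.43. Mvd was counted at 11.9, 10.4, and 11.2 CPM in Krt8+/+ and at 13.8, 15.7, and 15.6 CPM in Krt8-/- cells, a log2 difference of 0.43 (95% interval 0.05 to 0.81, adjusted p = 1). Mbtps2 was counted at 15.2, 13.3, and 13.2 CPM in Krt8+/+ and at 11.2, 7.59, and 11 CPM in Krt8-/- cells, a log2 difference of -0.49 (95% interval -0.97 to -0.01, adjusted p = 1). The 3 libraries of each genotype did not overlap for 8 of the 27 members on day 3, 7 of them higher in Krt8-/- cells (Mvd, Idi1, Fdps, Sqle, Cyp51, Msmo1, and Ebp), and for 0 members on days 0, 1, and 7. Over all genes tested, the genotypes did not overlap for 11% on day 3 (6.79% higher and 4.17% lower in Krt8-/- cells). On days 0, 1, and 7 they did not overlap for 6.88%, 5.79%, and 5.54%. Over days 1, 3, and 7 the members with the smallest p were Mvd (0.23, 0.02 to 0.45), Mbtps2 (-0.24, -0.51 to 0.04), and Hsd17b7 (0.22, -0.08 to 0.51), each with an adjusted p of 1. For genotype by day they were Mbtps2, Pmvk, and Mvd, with a smallest unadjusted p of 0.278.

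**Figure D3:**
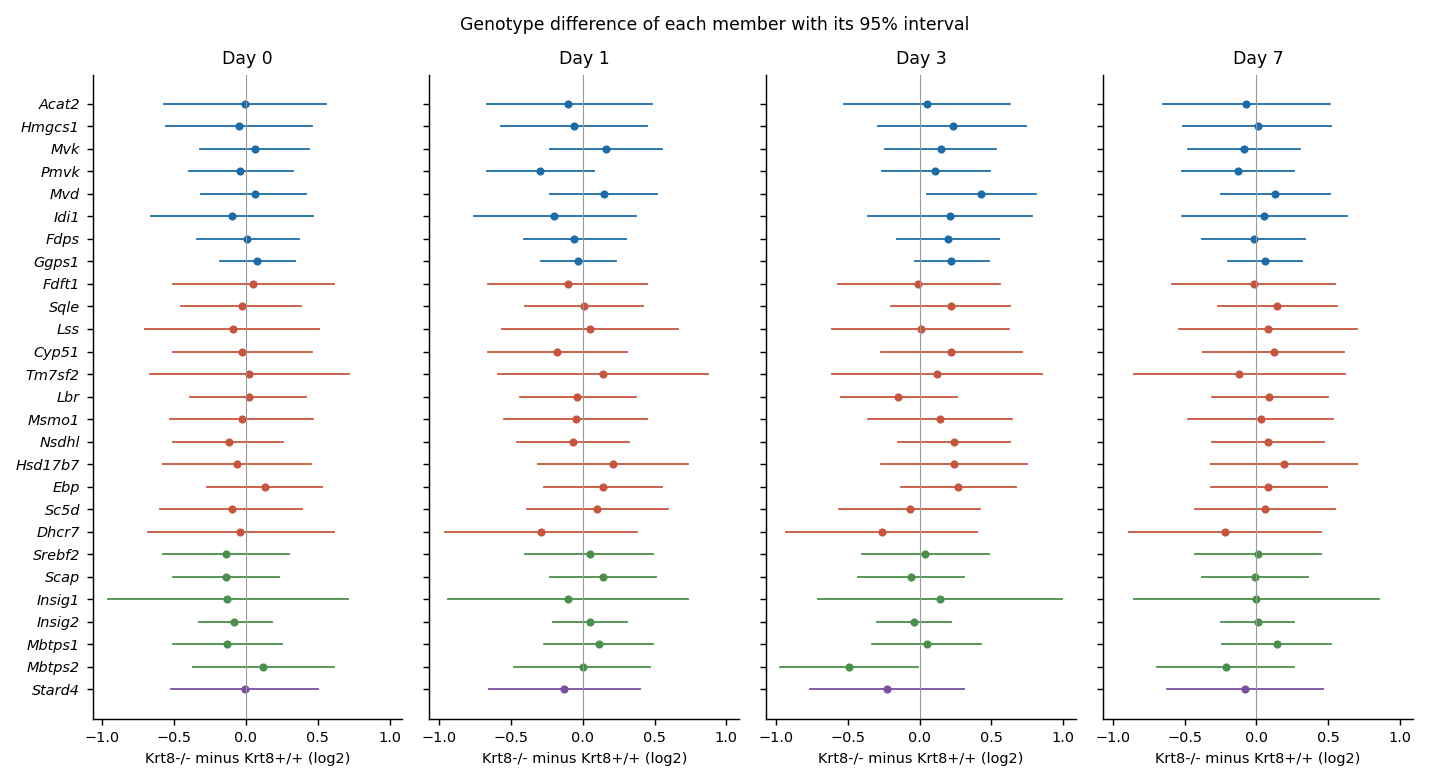
Log2 difference of each of the 27 genes between Krt8-/- and Krt8+/+ cells on days 0, 1, 3, and 7, with 95% intervals from edgeR (3 isolations per group). On days 0, 1, and 7 all intervals include 0, and on day 3 those of Mvd and Mbtps2 do not, without adjustment.

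Mbtps2, Nsdhl, and Ebp lie on the X chromosome, and the libraries of isolation 1 differed between genotypes in genes of the sex chromosomes. The summed level of 4 Y-linked genes was at most 0.441 CPM in the Krt8+/+ and 173 to 191 CPM in the Krt8-/- libraries of isolation 1, while Xist stood at 62.4 to 79.5 and at 5.92 to 12 CPM. Both genotypes were low in Y-linked genes in isolation 2 and high in isolation 3. Without isolation 1, as with it, no member differed between genotypes past the threshold.

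Isolation 2 stood apart on day 1, in both genotypes. Its level was the lowest of the 3 isolations for 20 of the 27 members in Krt8+/+ and for 20 in Krt8-/- cells, beside 38.2% and 34.6% of all genes tested. The log2 difference between isolation 2 and the mean of the other 2 had a median of -0.67 over the members in Krt8+/+ and -0.43 in Krt8-/- cells, beside -0.04 and 0.01 over all genes. Insig1 had the lowest value in both (-2.17 and -1.65), followed by Acat2 in Krt8+/+ (-1.34) and Idi1 in Krt8-/- cells (-1.18). Ebp (0.56 and 0.62) and Mbtps2 (0.31 and 0.48) were higher in isolation 2. On day 0, isolation 2 was the lowest for 18 members in Krt8+/+ (66.7%, beside 26.3% of all genes), with a median log2 difference of -0.09, and for 0 in Krt8-/- cells (24.9% of all genes), with a median of 0.19. On days 3 and 7 the medians of the members were between 0.08 and 0.27 in both genotypes.

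**Figure D4:**
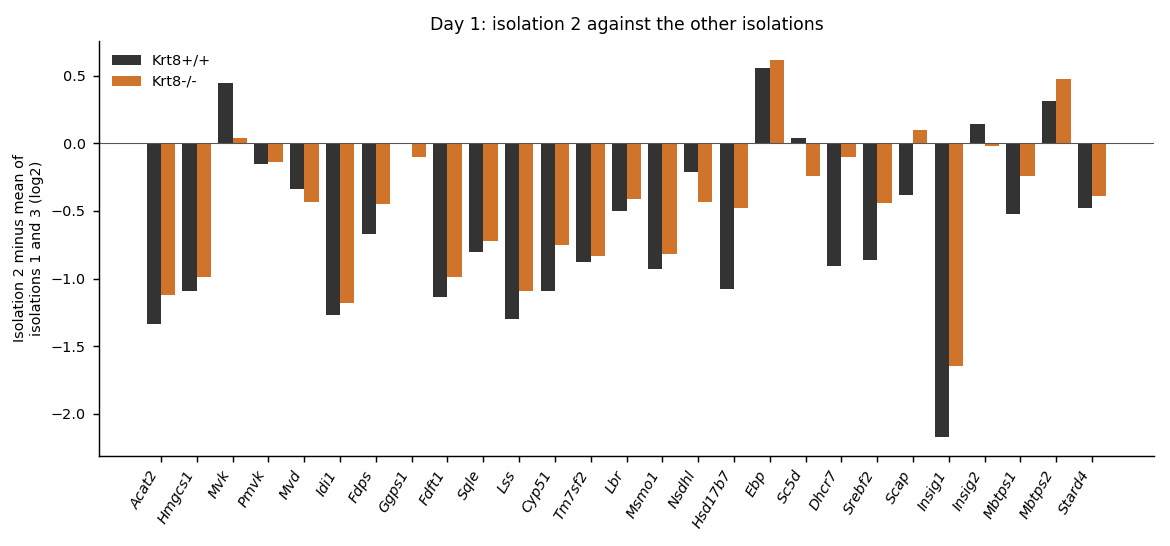
Log2 difference on day 1 between isolation 2 and the mean of isolations 1 and 3 for each of the 27 genes, as bars from 0 in Krt8+/+ and Krt8-/- cells (1 library against 2, no test). Most bars point down in both genotypes, deepest for Insig1 at -2.17 and -1.65.

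Markers of several cell types moved with it. The sum of the AEC2 markers on day 1 was 17400 CPM in isolation 2 beside 92200 and 76100 CPM in isolations 1 and 3 of Krt8+/+ cells, and 16400 beside 87800 and 70000 CPM in Krt8-/- cells. Club and ciliated cell markers were highest in isolation 2, at 15700 CPM beside 4640 and 7650 CPM in Krt8+/+ and 11400 beside 8090 and 7310 CPM in Krt8-/- cells. The 6 markers of type 1 cells were lowest in isolation 2 (604 beside 962 and 912 CPM, and 757 beside 1120 and 1050 CPM), and the 5 markers of transitional cells were highest (8370 beside 6840 and 7540 CPM, and 5280 beside 3990 and 4630 CPM). Each sum was compared within its genotype. Krt8, which the paper names as a marker of the transitional state in mice, had day 1 means of 3210 CPM in Krt8+/+ and 38.2 CPM in Krt8-/- cells. Macrophage markers, from 22.6 to 194 CPM over the day 1 libraries, lay between those of the other isolations in isolation 2 in both genotypes, and fibroblast markers ranged from 94.7 to 255 CPM. Whether these have a part in the levels of the sterol genes was not tested. Over the time course, club and ciliated cell markers went from 4180 to 17100 CPM on day 0 to 14.3 to 33.7 CPM on day 7, lymphocyte markers from 15.2 to 28.9 to 0.0681 to 0.286 CPM, endothelial markers from 12.4 to 30.7 to 1.87 to 4.72 CPM, and fibroblast markers from 295 to 985 to 834 to 3180 CPM. Markers of type 1 cells stood at 2390 to 3540 CPM on day 0 and at 604 to 1120 CPM on day 1. They then stood at 970 to 1940 CPM on day 3 and at 1320 to 2370 CPM on day 7. The paper instead describes a gradual rise of markers of these cells in culture, using composite scores rather than summed counts. A sum gives most weight to the most counted genes, and the reason for the difference was not tested. Markers of transitional cells went from 860 to 969 CPM on day 0 to 7770 to 12200 CPM on day 7 in Krt8+/+ cells. In Krt8-/- cells they went from 405 to 474 CPM to 3910 to 8320 CPM.

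Other genes that handle sterols changed in both directions. These lists, too, were chosen with earlier results of these data known. Their counts stand beside 30.2% of all genes that fell and 28.6% that rose, and shares near these are no result about a list. In Krt8+/+ cells on day 7 against day 0, all 5 further genes that respond to SREBP2 fell, Acss2 (acetyl-CoA synthetase) most, from 217 ± 7.82 to 3.85 ± 0.997 CPM (SD, n = 3; log2 -5.81, SE 0.31, adjusted p = 1.23e-11). Of 11 genes of uptake and trafficking, 9 fell and 2 rose. Npc2, the lysosomal cholesterol carrier, went from 2570 ± 416 to 175 ± 11.6 CPM (log2 -3.88, adjusted p = 1.12e-08) and Vldlr, a lipoprotein receptor, from 83.2 ± 2.69 to 22.1 ± 6.25 CPM (log2 -1.91, adjusted p = 0.00086). Lrp8, another receptor of that family, rose from 1.57 ± 0.634 to 23.8 ± 2.43 CPM (log2 3.86, adjusted p = 5.96e-10), and Gramd1a, a carrier at contacts of the plasma membrane, from 30.1 ± 4.86 to 48.6 ± 5.54 CPM (log2 0.69, adjusted p = 0.00167).

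Of the 7 storage and oxysterol genes, 3 rose and 2 fell, numbers that in so short a list lie near the shares over all genes. Soat1, which esterifies cholesterol for storage, went from 558 ± 34.7 to 79.3 ± 19.5 CPM (log2 -2.81, adjusted p = 3.42e-06), and Nceh1, which releases it, from 147 ± 6.58 to 64.1 ± 4.16 CPM (log2 -1.20, adjusted p = 4.05e-06). Ch25h, the hydroxylase that makes an oxysterol which blocks SREBP2 processing, rose from 0.184 ± 0.232 to 3.31 ± 2.44 CPM (log2 3.88, adjusted p = 0.00181), and Soat2 from 0.0361 ± 0.0625 to 0.572 ± 0.228 CPM (log2 3.88, adjusted p = 0.00629), both from close to 0. The third that rose was Lipa, the lysosomal acid lipase, named after its values were seen, which went from 7.62 ± 6.70 to 61.3 ± 40.1 CPM (log2 2.96, adjusted p = 0.00515). Of the 5 efflux and LXR genes with enough counts, 2 fell and none rose. Nr1h3, which encodes LXR alpha, went from 28.5 ± 2.11 to 1.78 ± 0.646 CPM (log2 -3.98, adjusted p = 1.18e-08) and Mylip from 11.1 ± 1.51 to 4.76 ± 0.0678 CPM (log2 -1.23, adjusted p = 0.018), while the exporter Abca1 was at 22.9 ± 6.54 and 18.7 ± 2.67 CPM (log2 -0.29, adjusted p = 0.52).

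Of 7 genes of sterol-dependent protein degradation, 3 fell, with Erlin1 (log2 -1.64, adjusted p = 9e-08) and the ubiquitin ligase Rnf145 (log2 -1.62, adjusted p = 2.51e-06) first, and Erlin2 rose (log2 0.59, adjusted p = 0.00334). Of 13 genes that use isoprenoids for prenylation, dolichol, or ubiquinone, 5 rose and 3 fell, also near the shares over all genes. Pdss1, which builds the ubiquinone side chain, rose from 2.7 ± 0.469 to 10.1 ± 3.18 CPM (SD, n = 3; log2 1.89, adjusted p = 2.63e-05) and Rabggtb, a subunit of the Rab prenyltransferase, from 17.2 ± 0.298 to 39.5 ± 0.958 CPM (log2 1.20, adjusted p = 7.36e-07). Fnta, a shared prenyltransferase subunit, fell (log2 -0.49, adjusted p = 0.000834), as did Dhdds, of dolichol synthesis (log2 -0.42, adjusted p = 0.00635). The median log2 change was 0.01 over this list and -1.37 over the further genes that respond to SREBP2, beside 0.00 over all genes.

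Some members share sequence with other loci, so that reads may have been split or misassigned. Fdps has 6 near-identical copies, whose reads came to 14.4% of its own, Idi1 has 3 (4.31%), and Fdft1 has 1 (4.42%). Adding the copies to the member moved the day 7 level of Fdps in Krt8+/+ cells from 19.1% to 18.9% of day 0, that of Idi1 from 9.93% to 9.9%, and that of Fdft1 from 22.0% to 22.1%. Acat2 matches Tcp1, a chaperonin gene, over 445 bases in the reverse orientation (98.7% identity), and Tcp1 went from 231 ± 13.2 to 503 ± 21.7 CPM (SD, n = 3) by day 7 in Krt8+/+ cells. Yy2 overlaps 28.4% of the exonic bases of Mbtps2 on the same strand and was at 1.51 ± 0.965 CPM on day 0 and 3.29 ± 0.238 CPM on day 7. The sources used here do not state whether the counting used strand, so the counts of overlapping genes could not be separated.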

How the data were processed

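The data were 24 RNA libraries of mouse AECs, 3 per genotype and day. The authors deposited 1 table of whole-number counts per Ensembl gene without normalization. Their processing notes name cutadapt 2.3, STAR 2.7.8a, RSEM 1.3.3, and GRCm38, without roles, so the counts may be rounded estimates. Symbols came from GENCODE M21 (55154 of 55421 identifiers matched). The 5 entries of reporter genes were at 0 in every library.

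The software was R 4.3.3 and edgeR 4.0.16 (filterByExpr, min.count 10, min.total.count 15, TMM scaling) and limma 3.58.1. In 1 quasi-likelihood model of 8 groups with 16 residual degrees of freedom, 18046 genes were tested, with Benjamini-Hochberg adjustment and a threshold of 0.05. Alternatives were DESeq2 1.42.0, its size factors, no filter, a block for isolation, omission of each isolation, and a fit of only the libraries compared. The procedure was tested on simulated data. Members and lists were chosen with earlier results of these data known. All members are described. Named with a test were those past 0.05 in culture comparisons, the 3 with the smallest p between genotypes, and up to 2 genes each way of every other list. A gene that this rule names is not reported here. Members singled out for a difference in timing were chosen after their values were seen.

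The dates in the sample titles recur across genotypes and days. They were read as isolation dates, and the isolation numbers pair the libraries on that reading. The deviation from the group mean correlated between paired libraries at -0.0345 to 0.548, over 0.1 in 27 of 36 pairs. No 2 libraries of a group were duplicates (chi-square per gene 9.44 to 110 over 24 pairs). Promoter windows were RefSeq's on GRCm38.p6, and 4 members had no entry (Fdft1, Fdps, Sqle, and Stard4).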

Additional observations from a re-analysis of the deposited data

How the results depend on the processing

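Of 1357 recomputed values of the 27 genes, 1220 kept direction and side of the threshold, 136 kept direction only, and 1 reversed. These values are fold changes and tests of genotype by day, and the latter have no direction and were judged by the threshold alone. The reversed value was Mbtps1 between genotypes on day 0 (log2 -0.29 to 0.02 with 1 isolation left out, positive without isolation 3). Counts of members between genotypes were 0 under every alternative.

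In Krt8+/+ cells, the members higher from day 1 to day 3 numbered 2 without the filter and 2 with isolation as a replicate block. The members lower from day 3 to day 7 numbered 0 without the filter. A fit of only the libraries compared gave 2 lower in that step, Hmgcs1 and Idi1 and not Pmvk, and 1 higher on day 7 against day 0. In Krt8-/- cells without the filter, 1 was higher on day 1 against day 0, 2 from day 1 to day 3, and 2 on day 7 against day 0, and 2 were lower from day 3 to day 7. Only the libraries compared gave 2 higher from day 1 to day 3, 4 lower from day 3 to day 7, and 1 higher on day 7 against day 0. The block gave 3 higher from day 1 to day 3, and DESeq2 2 lower from day 3 to day 7. For the difference between the first and the second step in Krt8+/+ cells, DESeq2 gave 5 higher, its size factors 5, and only the libraries compared 8 lower. Besides the values above, the block lost the calls of Mbtps1 on day 7 (adjusted p = 0.0527) and Msmo1 in the step contrast (adjusted p = 0.0525), both in Krt8-/- cells, and no other call of a member. The cause was not tested.

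Leaving out 1 isolation in turn gave, in Krt8+/+ cells, 1 to 2 members higher on day 1, 0 to 1 higher and 7 to 12 lower from day 1 to day 3, 0 to 1 higher and 0 to 1 lower from day 3 to day 7, and 0 to 2 higher on day 7 against day 0. In Krt8-/- cells it gave 0 to 1 higher on day 1, 0 to 1 higher and 3 to 10 lower from day 1 to day 3, 0 to 1 higher and 0 to 4 lower from day 3 to day 7, and 1 to 2 higher on day 7 against day 0. The step contrast gave 1 to 7 higher and 5 to 8 lower in Krt8+/+ and 1 to 6 higher and 6 to 9 lower in Krt8-/- cells. These fits have fewer samples.

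The members lower on day 7 against day 0 numbered 22 to 23 in Krt8+/+ and 19 to 22 in Krt8-/- cells when 1 isolation was left out. With 3 isolations per group, the 95% interval of a log2 difference reached 0.48 or more to either side for the median member, and Tm7sf2, with 47 reads in its lowest library, and Mbtps2 were the least counted members.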
